A study of Homo sapiens with 8 samples.

Results

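The genes described here are 38 molecular chaperones and their helpers, chosen by name from the series' table of read counts. All 38 were found among its 28518 gene rows, and all 38 were among the 14834 genes that passed the filter on low counts. They comprise 20 genes of the cytosol, 3 of the mitochondrion and 15 of the endoplasmic reticulum (ER).

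Chaperones bind unfolded proteins and help them fold. In the cytosol, HSP70 proteins work with J-domain partners and exchange factors and pass many clients to HSP90, and the transcription factor HSF1 raises these genes when unfolded proteins accumulate. In the ER, the HSP70 protein BiP (HSPA5), lectin chaperones and disulfide isomerases fold secreted and membrane proteins, and the unfolded protein response raises their genes when that system is overloaded. Keratinocytes make large amounts of keratin and of adhesion and secreted proteins, and both systems are active in them.

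RNA was counted in 8 libraries of HaCaT, an established human keratinocyte line, which all carried a CARD14 knockout. CARD14, a scaffold protein through which epithelial cells activate NF-kB, was put back on a plasmid. Each 10 cm dish was given 9 ug of plasmid, with new medium 2 h later, and cells that fluoresced for GFP were collected by sorting at 24 h. The series asked which pathways differ between cells with hypomorphic CARD14 variants and cells with the wild-type protein. The groups were CARD14-R820W-T2A-eGFP, CARD14-N737H-T2A-eGFP, CARD14-I593T-T2A-eGFP and CARD14-WT-T2A-eGFP, with 2 libraries each, titled B and A. The T2A peptide releases eGFP from the protein made ahead of it, so that green cells are those that took up plasmid. Every group, WT included, was therefore transfected and lacked its own CARD14, and untransfected cells were not analysed here. The series text speaks of 2 independent experiments, but no label ties the letters to them in words, so B and A are called letters here. Nothing in the labels says that libraries of a group came from separate cultures, so the spread behind each p-value is that between libraries. Whether that spread is technical was not tested. As chi-square per gene, B and A differed by 28.3 for R820W, 33.7 for N737H, 57.7 for I593T and 105 for WT. Between constructs of the same letter the values ran from 6.56 (N737H A with I593T A) to 43.4 (WT A with N737H A). The spread within a group therefore includes the difference between letters.

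Short stretches of promoter show the control elements for which both chaperone systems are known, and which of the genes below carry them. They come from RefSeq promoters of build GRCh38.p14, while the deposited counts name hg19. Windows of 300 bases, from 250 before to 50 after each listed gene start, were held for 35 of the 38 genes. HSF1, FKBP4 and PDIA3 were not searched. The heat-shock element searched was GAANNTTCNNGAA or TTCNNGAANNTTC, which together cover both strands. The genes printed are the cytosolic carriers that passed the test for lower levels in the B than in the A libraries. Their shared direction therefore follows from this choice. HSP90AB1 and HSPD1 also carry the element, did not pass and are not printed. Capitals mark its 3-base units in these cytosolic genes:
HSPA8: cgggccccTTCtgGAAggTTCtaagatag
HSP90AA1: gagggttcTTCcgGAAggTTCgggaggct
DNAJA1: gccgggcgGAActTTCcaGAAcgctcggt
DNAJB6: agagccgaGAAccTTCgcGAAggtggggc
CHORDC1: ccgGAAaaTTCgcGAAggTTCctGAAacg
The HSPA8 stretch lies at chr11:123062171-123062199 on the minus strand, and HSPA8 has a second such element further upstream at chr11:123062346-123062374. The HSP90AA1 stretch is at chr14:102087112-102087140 on the minus strand and the CHORDC1 stretch at chr11:90223084-90223112 on the minus strand. Both, like the printed HSPA8 and DNAJA1 stretches, overlap an annotated exon of their own gene. The DNAJA1 stretch is at chr9:33025268-33025296 and the DNAJB6 stretch at chr7:157336865-157336893, both on the plus strand.

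The ER stress element searched was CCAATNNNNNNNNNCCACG, with its reverse CGTGGNNNNNNNNNATTGG. Capitals mark its outer parts in BiP, in the ER form of HSP90 and in CRELD2, the ER member with the largest value for I593T:
HSPA5: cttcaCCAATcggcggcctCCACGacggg
HSP90B1: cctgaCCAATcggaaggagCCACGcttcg
CRELD2: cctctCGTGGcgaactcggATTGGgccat
These stretches lie at chr9:125241386-125241414 on the minus strand, chr12:103930211-103930239 on the plus strand and chr22:49918549-49918577 on the plus strand. The HSPA5 and CRELD2 stretches overlap no annotated exon. The HSP90B1 stretch overlaps an exon of TTC41P, and a second copy of the element lies nearer the HSP90B1 start. The element was found in 6 of 14 ER genes with a window (42.9%), namely HSPA5, HSP90B1, PDIA6, CALR, CANX and CRELD2. It was found in 0 of the 21 other members and in 0.0916% of 27305 genes searched. The heat-shock element was found in 7 of the 21 cytosolic or mitochondrial members (33.3%), which adds HSP90AB1 and HSPD1 to the 5 printed, in 0 of 14 ER members and in 0.608% of all genes searched. A match describes letters in a window and is not a measured binding site.

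CARD14 RNA was abundant in every library, with 1410 and 1190 CPM (a gene's count scaled to the normalized size of its library) in R820W B and A, 1005 and 444.1 in N737H, 1394 and 499.6 in I593T, and 978 and 1127 in WT. The counts do not tell which construct a transcript came from. The libraries held 17892608 to 24629860 counts and 17836 to 21059 detected genes, the most in N737H B. Keratinocyte identity was plain from the keratin gene KRT14 (874 to 1551 CPM) and from the epidermal transcription factor TP63 (297 to 501 CPM), while KRT1, a keratin of differentiating layers, was at 0 in 6 libraries. Summed levels were 0.412 to 1.63 CPM for 5 fibroblast markers, 1.65 to 3.1 for 4 melanocyte markers and 0.869 to 2.41 for 3 endothelial markers. The 5 immune markers summed to 49.2 to 82.5 CPM, nearly all of it CD68 (48.2 to 82.1 CPM), while PTPRC was at 0 in 2 libraries and never above 0.193 CPM. In bulk RNA of this kind, fewer cells of a type and less RNA per cell cannot be told apart.

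No chaperone gene passed the test in any comparison of a CARD14 variant with WT. The 38 genes made up 2.57% and 3.08% of all counts in R820W B and A, 2.74% and 3.25% in N737H, 2.76% and 3.28% in I593T, and 2.58% and 3.39% in WT. Every B library was below every A library, and the groups overlapped. In edgeR's quasi-likelihood test, 0 of 38 members passed an adjusted p of 0.05 in each comparison of a variant with WT, where the background over all genes was 0%. At an unadjusted p under 0.05 there was 1 member with R820W (HSPE1; background 1.04%), 0 with N737H (background 2.44%) and 1 with I593T (CRELD2; background 1.43%). The mean of the 3 variants against WT gave 0 members by either rule, with backgrounds of 0% and 1.31%. DESeq2 and limma voom also called 0 members in these comparisons, but the share of all genes they called is not given here.

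With R820W, 33 of 38 members had a fold change below 0, with a median log2 fold change of -0.12 against -0.01 over all genes tested. The count of negative values was 25 of 38 with N737H (median -0.08, against -0.03) and 20 of 38 with I593T (median -0.02, against -0.02). Values above 0 made up 13.2%, 34.2% and 47.4% of members with R820W, N737H and I593T, against 48%, 45.8% and 45.6% of all genes. With I593T these shares were close. All 3 comparisons share the WT libraries, of which WT A was the highest of the 8 libraries for 16 of 38 members (42.1%), against 19.9% of all genes. Within B, which does not use WT A, the medians were -0.08 for R820W, -0.05 for N737H and 0.06 for I593T. There 11, 16 and 21 of 38 members were above WT, beside 7143, 7174 and 6991 of all 14834 genes. Within A the medians were -0.14, -0.10 and -0.09, with 9, 14 and 17 members above WT. Of all genes, 7438, 6779 and 7025 were above WT within A.

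**Figure D1:**
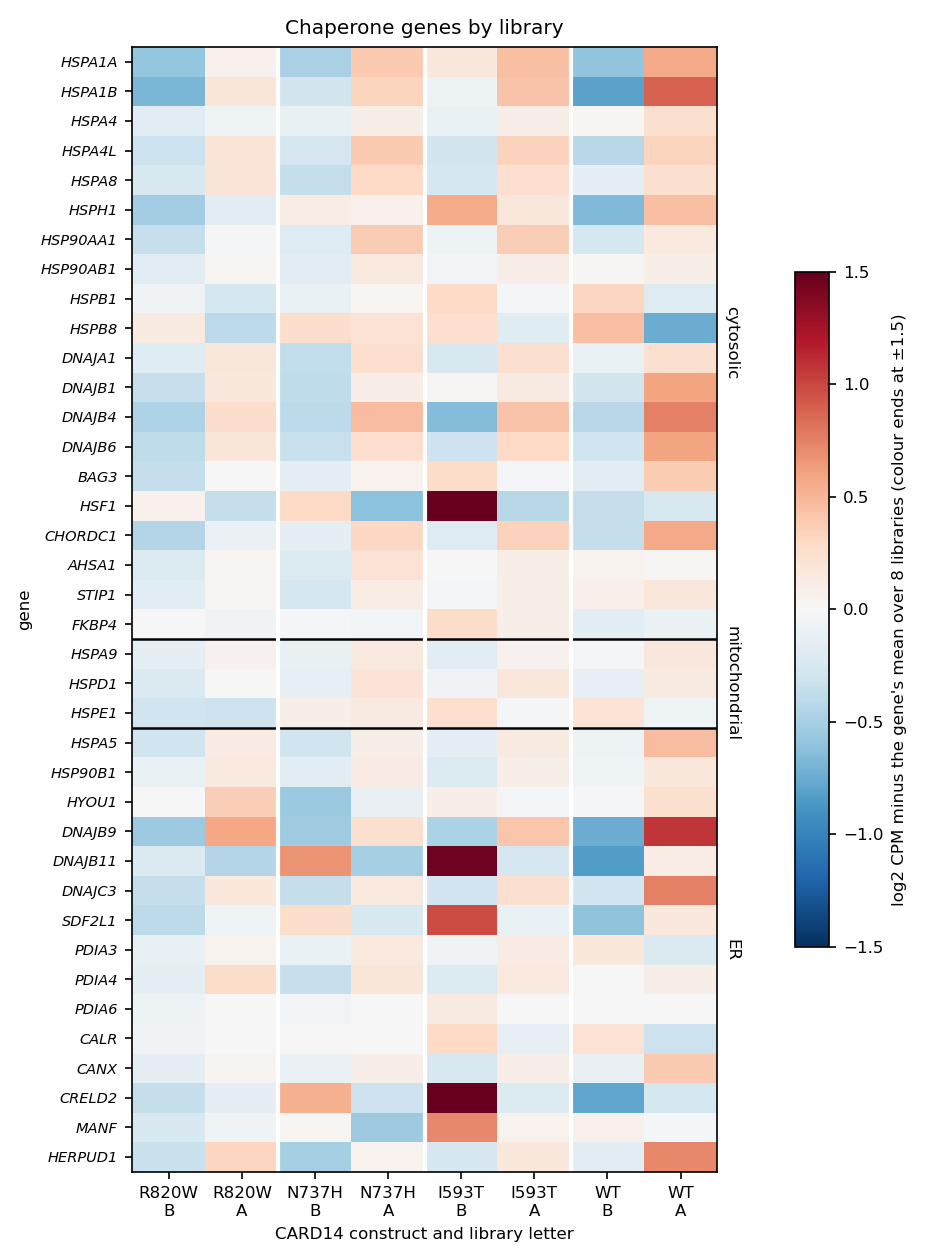
Level of each of the 38 chaperone genes in each library, as log2 CPM minus the gene's mean over the 8 libraries, with red above and blue below that mean; columns run R820W, N737H, I593T and WT, each with B left of A. Most cytosolic rows are blue in the B columns and red in the A columns, and HSF1, DNAJB11, SDF2L1 and CRELD2 have their deepest red in I593T B.

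**Figure D2:**
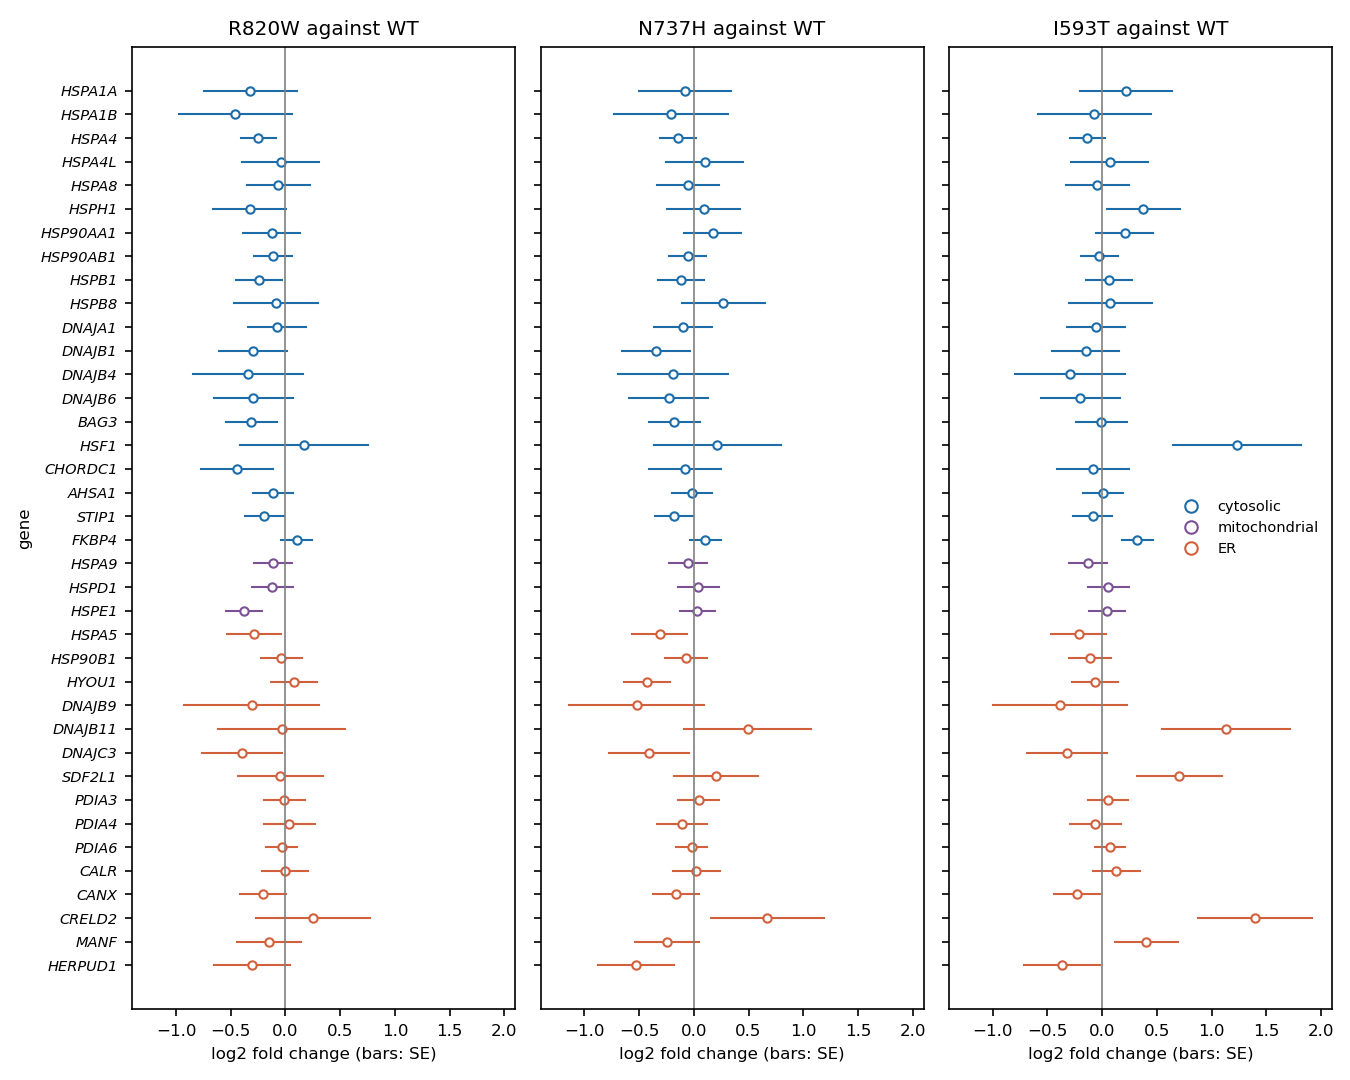
Log2 fold change of each member for R820W, N737H and I593T against WT (points), with its standard error (bars) and colours for the compartment. No point passed an adjusted p of 0.05, and the values furthest to the right are CRELD2, HSF1 and DNAJB11 with I593T.

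The comparison of letters, in contrast, gave calls, all in one direction. With construct as a term in the fit, 11 of 38 members were lower in the 4 B than in the 4 A libraries and 0 were higher at an adjusted p of 0.05. The background over all genes was 1.52% lower and 1.71% higher. The 11 were HSPA1A, HSPA4L, HSPA8, HSP90AA1, DNAJA1, DNAJB4, DNAJB6 and CHORDC1 in the cytosol and DNAJB9, DNAJC3 and HERPUD1 in the ER, with no mitochondrial member. At an unadjusted p under 0.05, 19 members were lower and 2 higher (HSPB8 and HSF1), where the background in both directions was 23.0%. In 19 of 38 members every B library lay below every A library, against a background of 10.0%. The median log2 fold change was -0.25 over the members and 0.03 over all genes.

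The number of members called rested on single libraries. It was 0 without R820W A, R820W B, I593T A or I593T B, when 0, 10, 31 and 32 of all genes were called. It was 6 without N737H A and 7 without N737H B, when 2.6% and 2.66% of all genes were called. Without WT A it was 16, of which 14 were lower and 2 higher (DNAJB11 and HSF1). Without WT B it was 15, of which 13 were lower and the same 2 higher. The share of all genes called rose too, to 6.86% without WT A and 6.48% without WT B, against 3.24% with all libraries. In this fit a library whose partner is left out carries no information on the letter. The number of members with a value below 0 was steadier, at 26 to 30 with any library left out.

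Some other measures followed the letter in every construct and some did not, and their part in the chaperone values was not tested. Detected genes were more numerous in B, with 18855, 21059, 18333 and 18432 in R820W, N737H, I593T and WT. Their A libraries had 18314, 17836, 18123 and 17909. The share of counts in the 10 most counted genes was lower in B in every construct (6.098% to 6.662%, against 6.344% to 7.465% in A). The summed immune markers, nearly all CD68, were higher in B in every construct. CARD14 itself had a log2 fold change of 0.68 ± 0.27 (SE) for B over A (adjusted p = 0.197), and was higher in B with each variant but lower in B with WT. Total counts were 17892608, 18878300, 20583323 and 22383534 in the B libraries of R820W, N737H, I593T and WT, and 24149631, 20792724, 24629860 and 22209350 in their A libraries, so the totals were lower in B for the variants and slightly higher in B for WT. The sum of 8 keratinocyte markers was 3102 to 4812 CPM in B and 3540 to 5105 in A, higher in B for I593T and WT and lower in B for R820W and N737H.

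**Figure D3:**
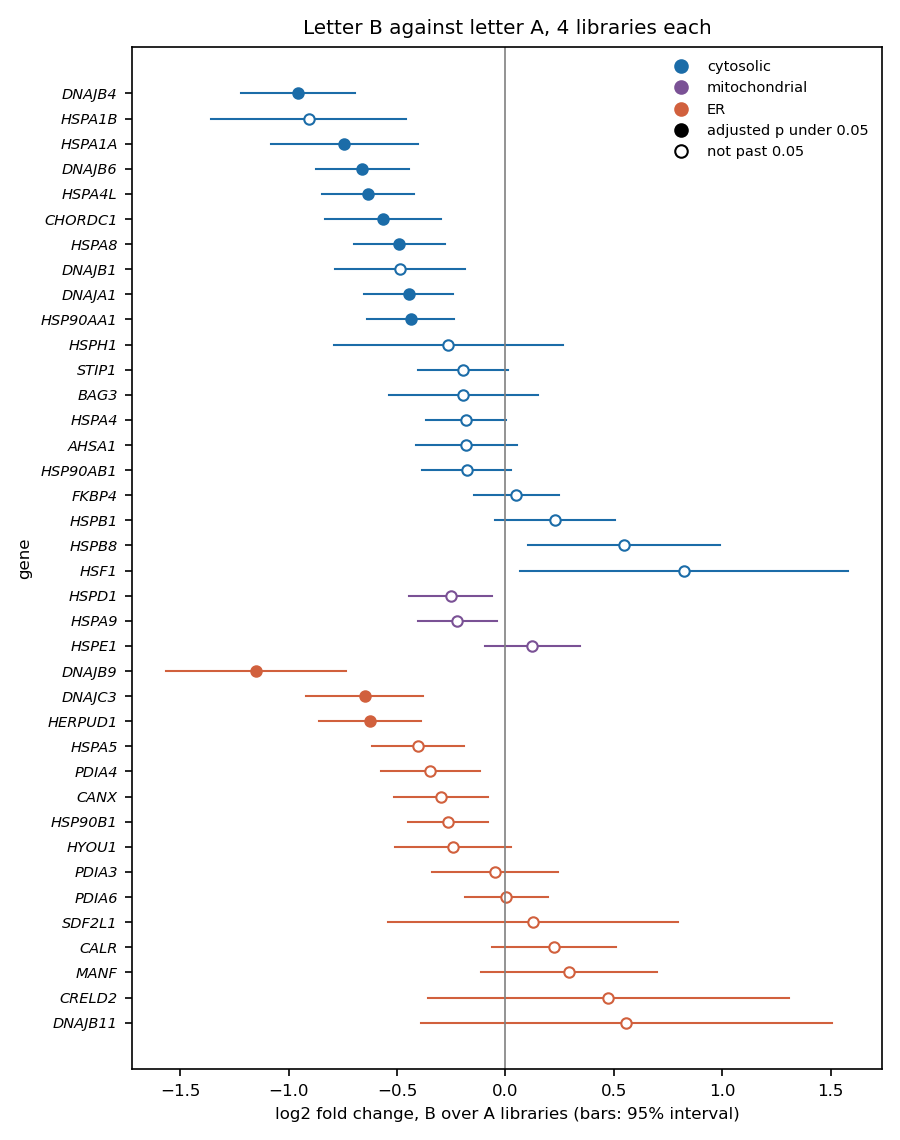
Log2 fold change of the 4 B over the 4 A libraries for each member, from a fit with construct as a term, with 95% intervals; filled points passed an adjusted p of 0.05. The 11 filled points all lie left of 0, from DNAJB9 at -1.15 to HSP90AA1 at -0.44, and HSF1 is furthest right at 0.82.

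Among the cytosolic HSP70 genes, the stress-inducible pair HSPA1A and HSPA1B stood lower in the B than in the A library of every construct. HSPA1A stood at 500.2, 533.6, 843 and 496.9 CPM in the B libraries of R820W, N737H, I593T and WT, against 784.4, 986.1, 1024 and 1109 in their A libraries. Each B library was below the A library of its construct, although I593T B exceeded R820W A. Its log2 fold change for B over A was -0.74 ± 0.14 (SE, n = 4 per letter, adjusted p = 0.0454). HSPA1B had 286.8, 380.9, 436.7 and 263.6 CPM in B, against 520.7, 578.8, 619.6 and 845.5 in A, and its value of -0.91 ± 0.19 missed the threshold (adjusted p = 0.0534). The letters did not overlap for HSPA1B. Both genes encode nearly the same protein, so their reads can have been split in ways the table does not show. Summed, the pair gave -0.81 (adjusted p = 0.0455).

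Against WT, the 2 inducible genes had opposite signs by letter. The HSPA1A difference in log2 CPM from WT in B was 0.01 for R820W, 0.10 for N737H and 0.76 for I593T, while in A it was -0.50, -0.17 and -0.11. HSPA1B showed the same arrangement, with 0.12, 0.53 and 0.73 in B and -0.70, -0.55 and -0.45 in A. WT A was the highest and WT B the lowest library for both genes. Their pooled log2 fold changes for R820W, -0.32 ± 0.42 and -0.46 ± 0.52 (SE, n = 2 per group), came with 95% intervals of -1.296 to 0.65 and -1.65 to 0.74.

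HSPA8, the constitutive HSP70 of the cytosol, was lower in B with little variation among constructs. It had 2066, 1907, 2035 and 2217 CPM in the B libraries of R820W, N737H, I593T and WT, against 2792, 2990, 2894 and 2864 in A. The letters were fully apart, and the log2 fold change was -0.49 ± 0.09 (SE, adjusted p = 0.0394). HSPA4L, an HSP110-type exchange factor that releases ADP from HSP70, had 32.5, 34, 33.7 and 30.4 CPM in B, against 46.6, 53.3, 51.8 and 51.1 in A (log2 fold change -0.63 ± 0.09, adjusted p = 0.0193). Its letters were also fully apart.

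The other 2 exchange factors of this type did not pass. HSPA4 had 338.6 and 362.6 CPM in R820W B and A, 349.7 and 403.3 in N737H, 353.6 and 404.6 in I593T, and 383.1 and 449.3 in WT. WT was the highest group in each letter, and the log2 fold changes against WT were -0.25 ± 0.16 for R820W, -0.14 ± 0.16 for N737H and -0.13 ± 0.16 for I593T (adjusted p = 1 each). HSPH1 had 195.3 and 253 CPM in R820W B and A, 302.8 and 294.8 in N737H, 412.1 and 316.2 in I593T, and 177.3 and 384.4 in WT. The I593T value against WT was 0.37 ± 0.33, made of 1.22 within B and -0.28 within A.

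Of the HSP90 genes, the inducible HSP90AA1 was lower in B and the constitutive HSP90AB1 did not pass. HSP90AA1 had 1157, 1288, 1394 and 1220 CPM in the B libraries of R820W, N737H, I593T and WT, against 1454, 1916, 1890 and 1623 in A. No B library reached the lowest A library, and the log2 fold change was -0.44 ± 0.09 (SE, adjusted p = 0.0456). HSP90AB1 ranged over 3526 to 4009 CPM in B and 4051 to 4372 in A, also without overlap, with -0.18 ± 0.09 (adjusted p = 0.27).

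The cytosolic J-domain members deliver clients to HSP70 and start its ATPase. All 4 had every B library below every A library (background over all genes 10.0%), and 3 of the 4 passed (background 1.52% lower). J-domain genes of the wider list were mixed, with -0.52 ± 0.22 for DNAJA4, -0.07 ± 0.27 for DNAJB2 and 0.07 ± 0.15 for DNAJC7 (adjusted p = 0.208, 0.9 and 0.809). DNAJA2, also of that list, was lower in B in every construct. Its log2 differences were -0.14 in R820W, -0.30 in N737H, -0.16 in I593T and -0.16 in WT. None of these wider-list genes passed. DNAJB4 had 21.2, 22.3, 18.7 and 22 CPM in the B libraries of R820W, N737H, I593T and WT, against 35.1, 40.4, 39.5 and 49.4 in A. The value of -0.96 ± 0.11 (SE, adjusted p = 0.0138) had the smallest p of the 38 genes. DNAJB6, which also holds back aggregation of polyglutamine proteins, had 172.4, 177.9, 179.9 and 182.7 CPM in B, against 253.1, 266.9, 274.5 and 338.9 in A (-0.66 ± 0.09, adjusted p = 0.0184). DNAJA1 had 402.7, 355.5, 389.3 and 426.4 CPM in B, against 514.3, 545.6, 542.1 and 540 in A (-0.45 ± 0.09, adjusted p = 0.0456). The B libraries of DNAJB6 lay close together, while WT was the highest of its A libraries. Against WT, all 4 J-domain genes had values below 0 with every variant, and none passed. Over all genes, 48%, 45.8% and 45.6% had values above 0 with R820W, N737H and I593T. The medians of the 4 J-domain genes were -0.295 for R820W, -0.21 for N737H and -0.17 for I593T. Within B they were -0.07, -0.07 and -0.08, and within A -0.43, -0.32 and -0.31. In each letter 0, 1 and 1 of the 4 genes were above WT. WT A was the highest library for DNAJB1, DNAJB4 and DNAJB6. DNAJB1 missed the threshold for the letter (-0.49 ± 0.13, adjusted p = 0.0847).

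DNAJB1 was also among the cytosolic members of smallest p for N737H against WT. It had 493.9 and 685.7 CPM in N737H B and A, 506.3 and 713.4 in R820W, 648.9 and 701.4 in I593T, and 529.3 and 969.4 in WT. WT A stood above all other libraries, and the N737H value of -0.35 ± 0.31 (adjusted p = 1) was 0.21 without it.

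Small heat-shock proteins hold unfolded proteins without using ATP. Both members had higher mean levels in B but did not pass, while CRYAB, of the wider list, had -0.58 ± 0.42 (adjusted p = 0.446). HSPB8 had 16, 17.7, 17.4 and 20.1 CPM in the B libraries of R820W, N737H, I593T and WT, against 11.1, 17.1, 13 and 8.75 in A. Its log2 fold change for B over A was 0.54 ± 0.19 (adjusted p = 0.148), and N737H A lay within the B range. HSPB1 ranged over 522.8 to 699.2 CPM in B and 465.9 to 574.5 in A (0.23 ± 0.12, adjusted p = 0.29).

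HSF1, the transcription factor of the heat-shock response, was set apart by one library. It had 19.3 and 14.3 CPM in R820W B and A, 22.7 and 12 in N737H, 56.6 and 13.7 in I593T, and 14.3 and 15.5 in WT. I593T B was 3.95 times the median of the other 7 libraries, which lay between 12 and 22.7 CPM. The I593T value against WT was 1.23 ± 0.58 (SE, n = 2 per group, adjusted p = 1), with 1.97 within B, -0.18 within A and -0.12 without I593T B. DGAT1, a gene on the opposite strand whose exons overlap those of HSF1, had 4.3 and 2.38 CPM in I593T B and A, and whether the counting used strand is not given in the sources used here.

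The HSP90 helpers differed among themselves. CHORDC1 had 331.3, 403.7, 392.3 and 350.0 CPM in the B libraries of R820W, N737H, I593T and WT, against 417.8, 556.2, 569.3 and 665.9 in A. Its letters were fully apart (-0.57 ± 0.11, adjusted p = 0.0478), and its value for R820W against WT was -0.44 ± 0.33 (adjusted p = 1), which was 0.14 without WT A. FKBP4, an immunophilin bound to HSP90, had 153.5 and 148.1 CPM in R820W B and A, 152.4 and 150.2 in N737H, 187 and 163.9 in I593T, and 137.3 and 143.8 in WT. Both I593T libraries were above all others, and both WT libraries below all others. The I593T value was 0.32 ± 0.14 with a 95% interval of -0.00 to 0.64 (adjusted p = 1), and it was 0.45 within B and 0.19 within A.

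STIP1, which joins HSP70 to HSP90, had 749.6 and 977.1 CPM in N737H B and A, 800.4 and 915 in R820W, 883.4 and 962.2 in I593T, and 948.9 and 1012 in WT. Its N737H value was -0.18 ± 0.18 (adjusted p = 1), of the same sign in both letters. The remaining cytosolic members, AHSA1 and BAG3, spanned 268.6 to 361.2 and 27.8 to 46.5 CPM over the 8 libraries and passed in no comparison.

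The mitochondrial chaperones form a folding chamber (HSPD1 with its lid HSPE1) and an import motor (HSPA9). HSPE1 had 539.2 and 534.6 CPM in R820W B and A, 702.2 and 725.9 in N737H, 787.3 and 655.3 in I593T, and 762.6 and 634 in WT. Both R820W libraries were below all 6 others. The log2 fold change against WT was -0.38 ± 0.16 (SE, n = 2 per group, unadjusted p = 0.0484, adjusted p = 1), with -0.50 within B and -0.25 within A. It ran from -0.47 to -0.24 with any one library left out. HSPE1 shares exon sequence with the readthrough gene HSPE1-MOB4, which is counted apart in the table at 36.9 reads per library on average. HSPD1, whose start lies head to head with that of HSPE1 on the opposite strand, had -0.12 ± 0.19 for the same comparison. HSPD1 and HSPA9 had non-overlapping letters, with 1681 to 1886 CPM in B against 1948 to 2256 in A and 672.1 to 746.4 in B against 788.9 to 849.2 in A, but neither passed (adjusted p = 0.126 and 0.15).

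Between variants, HSPE1 was the member of smallest p in both comparisons of R820W. R820W against N737H gave -0.41 (unadjusted p = 0.0356) and R820W against I593T gave -0.43 (unadjusted p = 0.031). In these 2 comparisons 2 members (HSPE1 and HYOU1) and 1 member were at an unadjusted p under 0.05, with backgrounds of 1.63% and 1.23%, and N737H against I593T had 0, with a background of 1.14%. By adjusted p, 0 members passed in any of the 3 pairs, where the background was 0%. All 20 cytosolic members had a value below 0 for R820W against I593T, with a median of -0.16. Over all genes the median was 0.00, and 50.3% had a value above 0. By letter, 3 of the 20 were above 0 within B and 3 within A, and 14 had the same sign in both.

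In the ER, BiP (HSPA5) was the most heavily counted member, at 0.441% to 0.714% of all counts. It had 4283 and 5750 CPM in R820W B and A, 4283 and 5589 in N737H, 4796 and 5762 in I593T, and 4995 and 7258 in WT. WT was the highest group in each letter. The log2 fold changes against WT were -0.29 ± 0.25 for R820W, -0.31 ± 0.25 for N737H and -0.21 ± 0.25 for I593T (adjusted p = 1 each), and without WT A the R820W value was 0.05. Every B library was below every A library, and the letter value of -0.40 ± 0.09 missed the threshold (adjusted p = 0.0618).

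HSP90B1, the HSP90 of the ER, had 1280 and 1516 CPM in R820W B and A, 1226 and 1502 in N737H, 1193 and 1464 in I593T, and 1320 and 1549 in WT. The 4 groups lay close together, with values against WT of -0.04 ± 0.19, -0.07 ± 0.19 and -0.11 ± 0.19 for R820W, N737H and I593T. The letter value was -0.27 ± 0.08 (adjusted p = 0.11), again without overlap. HYOU1, the exchange factor of BiP, had 76.1 and 98.7 CPM in R820W B and A, 52.2 and 71 in N737H, 82.3 and 75.6 in I593T, and 74.9 and 90.6 in WT. N737H was the lowest group in each letter, with -0.43 ± 0.21 against WT (unadjusted p = 0.0788, adjusted p = 1). R820W against N737H gave 0.50 for HYOU1 (unadjusted p = 0.0442).

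The J-domain partners of BiP split into genes that were lower in B and a gene that was highest in I593T B. DNAJB9, which presents BiP to the stress sensor IRE1, had 25.4, 25.8, 26.8 and 22.2 CPM in the B libraries of R820W, N737H, I593T and WT, against 55.5, 44, 49.9 and 78.2 in A. The letters were fully apart, and -1.15 ± 0.18 (SE, adjusted p = 0.0251) was the largest letter value of the 38. THAP5, on the opposite strand and overlapping DNAJB9, had -0.49 (adjusted p = 0.122). DNAJC3 had 190.1, 189.3, 199.6 and 198.7 CPM in B, against 271.6, 269.6, 287.5 and 409.9 in A (-0.65 ± 0.11, adjusted p = 0.0372). Within A, WT stood above the 3 variants, and the R820W value of -0.40 ± 0.37 (adjusted p = 1) was 0.26 without WT A.

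DNAJB11, which binds unfolded proteins ahead of BiP, and its partner SDF2L1 were both highest in I593T B. DNAJB11 had 56.4 and 48.5 CPM in R820W B and A, 104.6 and 46.4 in N737H, 180.4 and 54.9 in I593T, and 36.5 and 70.8 in WT. SDF2L1 had 39.1 and 48.9 CPM in R820W B and A, 61.5 and 43.2 in N737H, 100.6 and 47.7 in I593T, and 33.6 and 57.3 in WT. WT was the highest of the A libraries and the lowest of the B libraries for both genes, and the B libraries spanned the wider range. For I593T against WT the values were 1.13 ± 0.59 and 0.70 ± 0.39 (adjusted p = 1 each). Within B they were 2.30 and 1.58, and within A -0.37 and -0.26. Without I593T B they were 0.03 and 0.07. TBCCD1, which overlaps DNAJB11 on the opposite strand, had 35.4 and 32.5 CPM in I593T B and A.

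Of the secreted and membrane proteins induced by ER stress, CRELD2 was highest in I593T B and HERPUD1 was lower in B. CRELD2 had 17.4 and 19.99 CPM in R820W B and A, 32.2 and 17.9 in N737H, 63.6 and 19.3 in I593T, and 12.9 and 18.5 in WT. The A libraries spanned 17.9 to 19.99 CPM and the B libraries 12.9 to 63.6. The I593T value was 1.40 ± 0.52 (SE, n = 2 per group, unadjusted p = 0.0283, adjusted p = 1), the largest of the 38 genes in that comparison, with 2.29 within B and 0.06 within A. It was 0.29 without I593T B. For N737H it was 0.67 ± 0.52, with 1.31 within B and -0.05 within A. MANF spanned 8.24 to 19.8 CPM, with I593T B again the highest library.

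HERPUD1, a membrane protein of ER-associated degradation, had 201.7, 180.6, 214.3 and 225.4 CPM in the B libraries of R820W, N737H, I593T and WT, against 317.3, 264.4, 283.9 and 417.5 in A. The letters were fully apart, with -0.62 ± 0.10 (SE, adjusted p = 0.0285). WT was the highest group in each letter, and the N737H value of -0.53 ± 0.35 (adjusted p = 1) was 0.03 without WT A.

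The disulfide isomerases and lectin chaperones gave no calls. PDIA6 stayed within 643.7 to 746.4 CPM, the narrowest range of the 38 genes at a ratio of 1.16 between its highest and lowest library, against 4.94 for DNAJB11, the widest. PDIA4 had 435.5, 378.5, 418.6 and 482.5 CPM in the B libraries of R820W, N737H, I593T and WT, against 583.7, 544.4, 534.1 and 511.9 in A, without overlap but short of the threshold (-0.35 ± 0.10, adjusted p = 0.0996). CANX, the membrane-bound lectin chaperone, had 827.1 and 937.9 CPM in R820W B and A, 849.6 and 965.9 in N737H, 772.7 and 966 in I593T, and 841.4 and 1192 in WT. WT A was again the highest library, and the R820W value of -0.20 ± 0.21 (adjusted p = 1) was 0.11 without it. CALR, the soluble lectin chaperone, had 306.3, 317.8, 390.6 and 370.3 CPM in the B libraries of R820W, N737H, I593T and WT, against 318.1, 317.4, 293.6 and 255.6 in A. PDIA3, the isomerase that works with both lectins, had 2320, 2343, 2415 and 2801 CPM in B, against 2594, 2763, 2723 and 2150 in A. WT A was the lowest library for both genes, and WT B the highest for PDIA3. Neither passed in any comparison, and PDIA3 shares exon positions with ELL3 on the opposite strand (28.7 to 39.5 CPM in B, against 44.55 to 54.1 in A).

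**Figure D4:**
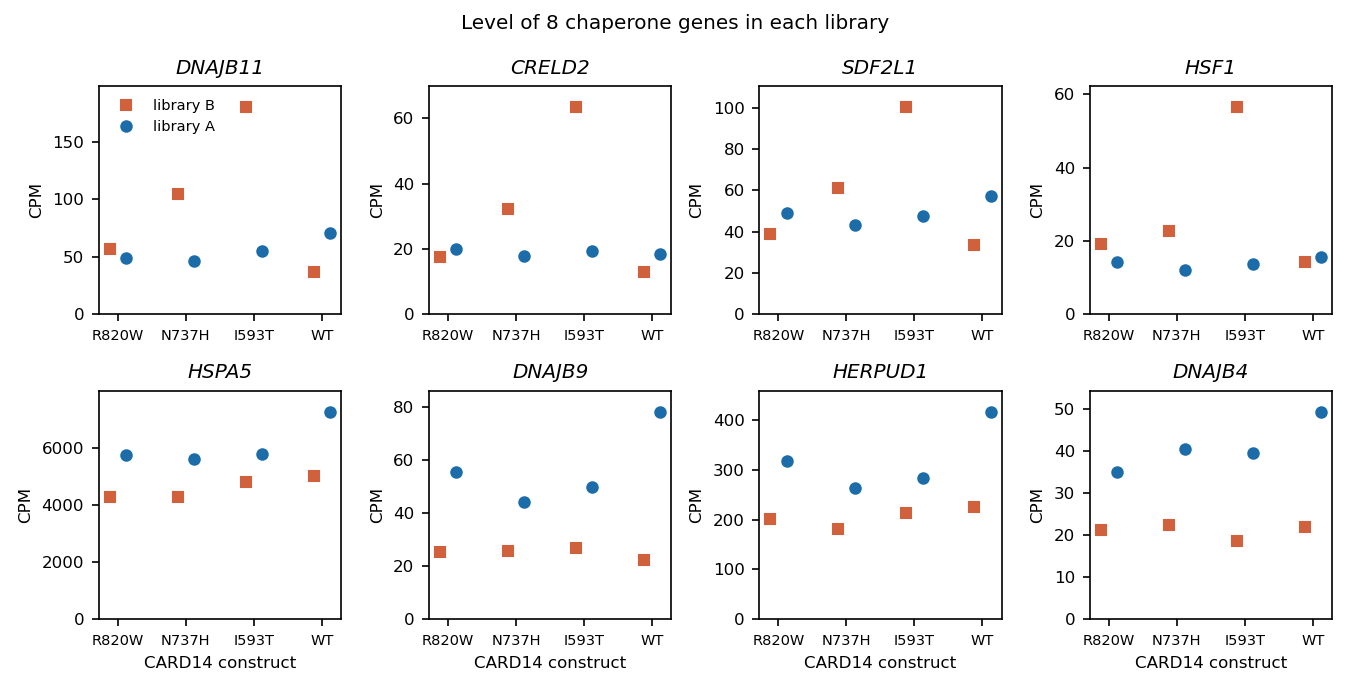
CPM of 8 members in each library, with B libraries as squares left of A libraries as circles for R820W, N737H, I593T and WT. In the upper row I593T B is the highest library, from 56.6 CPM for HSF1 to 180.4 for DNAJB11; in the lower row every B library lies below every A library.

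HSF1, DNAJB11, SDF2L1 and CRELD2 were the 4 members with I593T B highest and N737H B second, an order seen in 10.5% of members and 5.33% of all genes. This set was chosen after its values were seen and was not tested. I593T B was the highest library for 10 of 38 members (26.3%), against 15.8% of all genes.

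The promoter elements printed above were counted beside the letter calls. The 3-unit heat-shock element was in 5 of the 8 cytosolic members past the threshold for the letter and in 2 of the 13 other cytosolic or mitochondrial members with a window. A shorter form with 2 units, GAANNTTC or TTCNNGAA, was in 8 of those 8 and in 8 of those 13, against 16.2% of all genes searched. Of the 8 carriers of this shorter form that did not pass, HSPB1 and HSPB8 had higher mean levels in B. The rest were lower in B in every construct, as were 57.9% of all members and 17.8% of all genes. HSP90AB1 and HSPD1, the 2 with the 3-unit element that did not pass, had B libraries all below the A libraries. The stretch around the HSPD1 element overlaps an exon of HSPE1, which was higher in B in 3 of 4 constructs. The ER stress element was in 0 of the 3 ER members past the threshold (DNAJB9, DNAJC3 and HERPUD1) and in 6 of the 11 other ER members with a window. Unlike the heat-shock element, it was searched in its full form only. A window without a match therefore does not show that a gene lacks control by ER stress. Of those 6, HSPA5, HSP90B1 and CANX also had every B library below every A library, as did 10.0% of all genes. Thus 3 of the 7 ER members without overlap carried the element. These counts are descriptions, without a test.

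Wider lists of related genes gave 5 calls by letter, where the background over all genes was 1.52% lower and 1.71% higher. In the unfolded protein response list, 1 of 13 genes was higher and 1 lower. ATF6B, a relative of the stress sensor ATF6, had 28.9, 32.3, 41.2 and 28.9 CPM in the B libraries of R820W, N737H, I593T and WT, against 16.7, 14.7, 12.9 and 13 in A (1.19 ± 0.15, adjusted p = 0.0151). CREB3L2, a membrane-bound transcription factor, had 10.7, 11, 9.94 and 9.07 CPM in B, against 19.7, 19.7, 17.6 and 25.2 in A (-1.005 ± 0.15, adjusted p = 0.0222). Of 23 other ER folding enzymes and carriers 2 were lower, the reductase DNAJC10 (-0.52 ± 0.09, adjusted p = 0.0304) and the retention protein ERP44 (-0.39 ± 0.08, adjusted p = 0.0487). Of 14 chaperonin and prefoldin genes 1 was lower, CCT6A (-0.44 ± 0.08, adjusted p = 0.0417). The 14 tested genes of ER-associated degradation, 23 other cytosolic chaperones and 11 other mitochondrial chaperones and proteases had 0 calls.

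Against WT, 0 genes of these 6 lists passed with any variant. All 14 tested genes of ER-associated degradation had a value below 0 for the mean of the 3 variants, while 46% of all genes had a value above 0. The median of the 14 was -0.16 (-0.02 over all genes). Their medians were -0.13 within B and -0.26 within A. By letter, 3 of the 14 were above WT within B and 1 within A, and 10 had the same sign in both. The smallest p values of that list were those of DERL2, a channel component, with -0.35 ± 0.16, and of the adaptor SEL1L, with -0.36 ± 0.21 (adjusted p = 1 each). SEL1L had 118.1 and 140.6 CPM in R820W B and A, 114.1 and 140.3 in N737H, 105.2 and 134.5 in I593T, and 120.9 and 200.3 in WT. HSPBP1, an HSP70 exchange factor, repeated the arrangement of HSF1 and CRELD2, with 14.8 and 11.8 CPM in R820W B and A, 24 and 12.1 in N737H, 58.1 and 12.5 in I593T, and 12.1 and 9.89 in WT. Its I593T value was 1.68 ± 0.63 (unadjusted p = 0.0293, adjusted p = 1).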

How the data were processed

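RNA was extracted from sorted cells and made into libraries with a NEBNext low-input kit, per the labels' protocols. The authors' deposited values are raw counts, 1 whole number for each gene symbol and library. The submitters' processing notes name build hg19 and the tools FastQC, MACS2 and DESeq2, without versions or roles. How reads were aligned and counted, with which annotation and strand setting, is not given in the sources used here, so reads of paralogs or overlapping genes can have been shared in ways that cannot be checked. Of 28518 rows, 5569 had no count.

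Genes were kept by filterByExpr with the 4 groups (14834 genes, 99.9% of counts), scaled by TMM factors and fitted with edgeR 4.0.16 (R 4.3.3) by its quasi-likelihood method. Comparisons of constructs used group means over all 8 libraries (4 residual degrees of freedom, common biological coefficient of variation 0.262). The letter comparison had construct as a term (3 degrees of freedom, coefficient 0.19). Tests were two-sided, adjusted by Benjamini-Hochberg over all 14834 genes, and called under 0.05. There were 8 comparisons: 3 variants and their mean against WT, 3 pairs of variants, and B against A. CPM used normalized library sizes. Within a letter, log2 CPM values (prior count 2) were subtracted. Intervals are at 95%.

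Values per library are given for members past the threshold. They are also given for the 3 cytosolic or mitochondrial and 3 ER members of smallest p per variant, the 5 and 5 for the letter, HSPA1A, HSPA1B, HSF1, HSPA5, HSP90B1, and up to 2 genes per wider list. HSPB8, CALR and PDIA3 were added after their values were seen, as were HSPE1 and HYOU1 between variants. Members and lists were chosen with earlier results of these data known. Alternatives were RLE and upper-quartile normalization, normalization without CARD14 and the members, no filter, at least 10 counts in 6 libraries, DESeq2 1.42.0, limma 3.58.1 (voom), the letter as a block, only the groups compared, no construct term, and each library left out. All pairs of libraries differed by more than sampling noise (smallest chi-square per gene 6.56, between N737H A and I593T A). The largest value was 105, between WT A and WT B, which are the reference of every comparison with WT. Between the B and A libraries of R820W, N737H and I593T it was 28.3, 33.7 and 57.7. The fitting was tested on simulated data. Promoters were searched outside chromosome 8. Overlaps of exons come from GENCODE 29 on GRCh38.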

Additional observations from a re-analysis of the deposited data

Results flagged for a closer look

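For 11 of 38 members (28.9%, against 25.6% of all genes) the 3 variants lay on one side of WT in the B libraries and on the other side in the A libraries. The difference between the letters was not tested, and each letter has 1 library per construct. Values are the mean of the 3 variants minus WT in log2 CPM. Above WT in B and below it in A were HSPA1A (0.29 in B, -0.26 in A), HSPA1B (0.46, -0.57), HSPH1 (0.71, -0.42), HSF1 (1.02, -0.22), DNAJB9 (0.23, -0.66), DNAJB11 (1.48, -0.51) and SDF2L1 (0.89, -0.30). Below WT in B and above it in A were HSPB8 (-0.24 in B, 0.62 in A), AHSA1 (-0.192, 0.0933), PDIA3 (-0.25, 0.32) and PDIA4 (-0.23, 0.11). All values of a letter share that letter's WT library.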

How the results depend on the processing

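In every alternative run, 0 members passed in each comparison of a variant with WT, of the variants' mean with WT and of pairs of variants. The letter count of 11 members was 10 to 16 in the alternatives that kept all libraries and 0 to 16 with a library left out; of all genes, 480 were called, and 760 without a filter, 1321 with DESeq2, 1324 without the construct term and 0 to 1069 with a library left out. The cause of these differences was not tested. For comparisons of constructs, the share of all genes called in the alternative runs is not given here.

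Some values against WT turned in sign, and each is given with its range over single libraries left out. With R820W, CHORDC1 ran from -0.8337 to 0.1375, HSPA5 from -0.5364 to 0.04603, DNAJC3 from -0.8315 to 0.2566 and CANX from -0.4371 to 0.1085. With N737H, DNAJB1 ran from -0.7232 to 0.2097, HSPA4 from -0.2703 to 0.0283, HERPUD1 from -0.9146 to 0.03446 and STIP1 from -0.406 to 0.01533. The positive end came without WT A, except for STIP1 (without N737H B). With I593T, HSF1 ran from -0.1221 (without I593T B) to 1.921 and HSPH1 from -0.07933 (without WT B) to 1.085, and HSPA1B was 0.1067 when summed with HSPA1A.

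Libraries of the same letter deviated together in 5 of 6 pairs of groups (correlation 0.31 to 0.41) but not for N737H with WT (0.0242). No label explains the letter, so it was not used as a pairing in the main fit, although libraries of a letter largely varied together. The standard errors, intervals and p-values of construct comparisons therefore include the difference between letters. For HSPA8 with R820W against WT the SE was 0.28, while the differences were -0.10 within B and -0.04 within A. With the letter as a replicate block, 0 members passed in edgeR and 0 in DESeq2 in every variant comparison. The share of all genes that passed in these block fits is not given here. Intervals for single genes were wide: for HSPA1A with R820W the 95% interval was -1.296 to 0.6528.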
